A study of Polypedilum vanderplanki with 8 samples.

Results

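Open chromatin on chromosome 4 of Pv11 cells was described from the ATAC-seq peaks that lie on this chromosome. The peaks were chosen by their chromosome name alone, and they numbered 968 of the 12035 peaks in the deposited list, or 8.04%. Chromosomes 1, 2 and 3 held 4015, 3869 and 3114 peaks and served as the comparison, and another 69 peaks lay on unplaced scaffolds. The list names no genome build, so positions below follow its own coordinates, counted from 1.

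Pv11 is a cultured cell line of the sleeping chironomid, Polypedilum vanderplanki, a midge whose larvae survive almost complete drying. Wild-type Pv11 cells were sampled in normal culture before any trehalose (3 libraries) and after 48 h in preconditioning medium with 600 mM trehalose (3 libraries). Trehalose is the sugar that prepares these cells for desiccation. Another 2 long-read libraries came from the transgenic clones 4C and B2 and were not used here. The deposited file is 1 peak list for the experiment, without a library, condition or replicate in it, so normal culture and trehalose cannot be compared and no value has a replicate error.

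In ATAC-seq a transposase cuts DNA where nucleosomes leave it exposed, so that promoters, enhancers and other accessible stretches collect fragments and are called as peaks. A narrow peak is typical of a single nucleosome-depleted element, while a broad peak covers a longer accessible domain. The peak caller named by the submitters, Genrich, gives each peak a start, an end and a summit. It also gives an area, which by its output format is the area under the curve of significance over the peak, and the -log10 of the p-value at the summit, called summit height here. Area divided by width is called area per bp or signal per bp here. It went down to 0.230 on chromosomes 1 to 3, where no summit was below 3.76. Whether area counts all significance or only the part above a calling threshold is not stated. Ratios of area per bp are therefore not ratios of accessibility. Sequencing depth, in total or per chromosome, is unknown.

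Chromosome 4 carried fewer and much narrower peaks than the other chromosomes, but the signal per bp inside them was higher. Up to its last peak chromosome 4 was 14015354 bp long, or 11.9% of the length of the 4 chromosomes. It held 8.09% of their peaks, 4.83% of the bases covered by peaks and 5.45% of the summed area. The summed area per kb of chromosome was 206 on chromosome 4, against 469 on chromosome 1, 506 on chromosome 2 and 481 on chromosome 3. The other chromosomes thus differed little from each other, and chromosome 4 was below all of them.

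To set these values beside the variation along a chromosome, each chromosome was divided into full windows of 1 Mb. Chromosome 4 gave 14 windows, and chromosomes 1 to 3 gave 102. Windows were compared with a two-sided exact rank-sum test, and the p-values were adjusted over 12 measures by the Benjamini-Hochberg method. Neighbouring windows are not independent and are places in 1 list, not replicates. The p-values also depend on how many windows are cut. They are therefore descriptive only and do not measure the size of a difference. Taken as single units, 1 chromosome against 3 cannot give a two-sided p under 0.5.

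Windows of chromosome 4 held 41 to 107 peaks, with a median of 70.5. The median of the other windows was 103 (range 30 to 195), and 13 of the 14 windows of chromosome 4 were below it (exact rank-sum test, adjusted p = 3.05e-05). The ranges overlapped, since 12 of the 102 other windows held fewer peaks than the median window of chromosome 4. Covered length separated the chromosomes further. Peaks covered 1.65% to 6.49% of a window on chromosome 4, with a median of 3.49%, and 1.43% to 17.4% elsewhere, with a median of 9.16% (exact rank-sum test, adjusted p = 5.69e-11). All 14 windows of chromosome 4 were below the median of the others, and only 3 of the 102 other windows were below the median of chromosome 4.

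**Figure D1:**
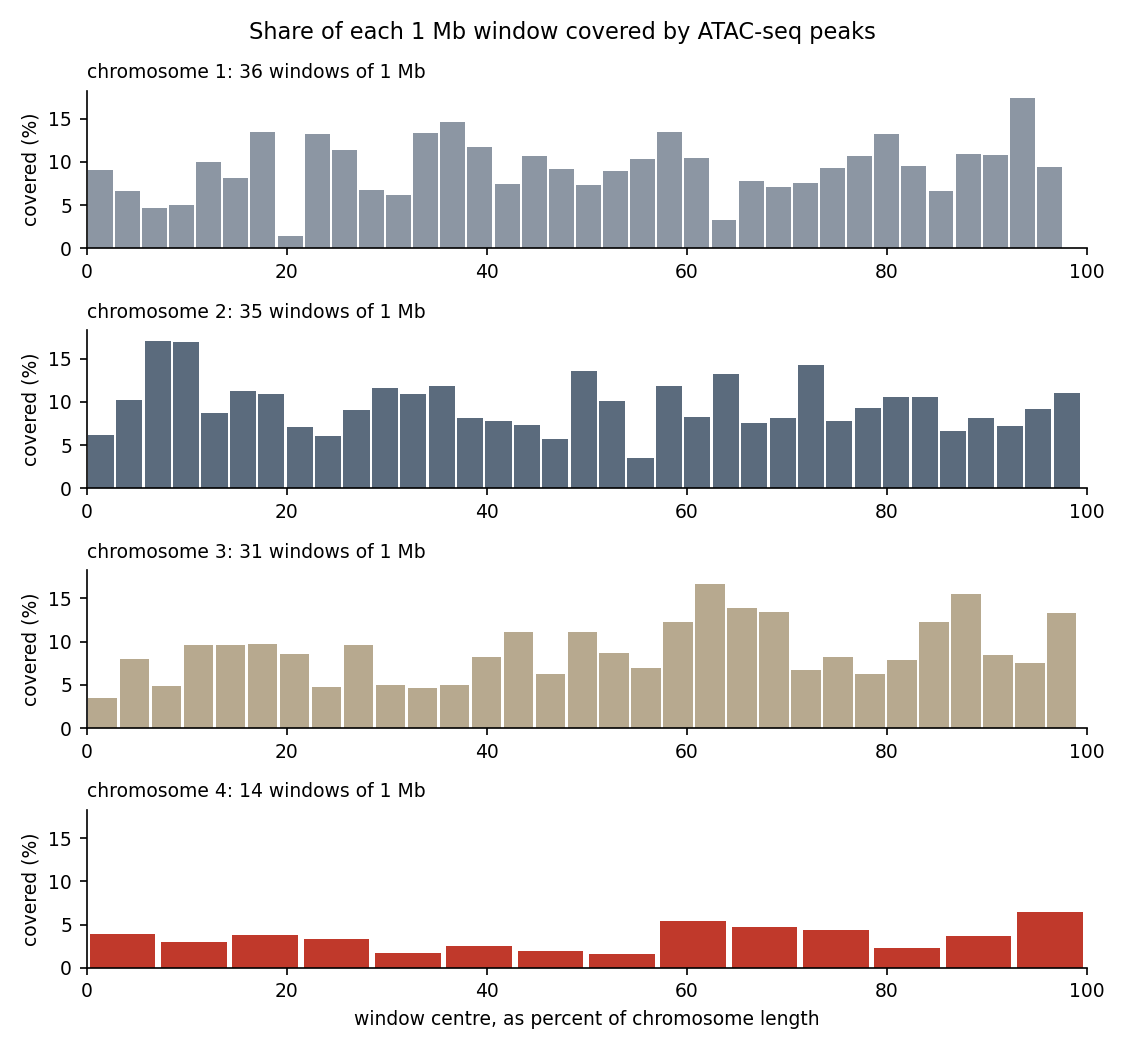
Share of each full 1 Mb window covered by peaks (y axis, %), against the window centre as a percent of chromosome length (x axis), with 1 panel for each chromosome. The 14 windows of chromosome 4 lie between 1.65% and 6.49%, and those of the other chromosomes reach up to 17.4%.

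Along chromosome 4 the peaks were not spread evenly. The first 4 windows held 72, 54, 80 and 69 peaks. The next 4 windows, from 4 to 8 Mb, held the fewest, with 49, 50, 42 and 41 peaks, and were covered to 1.73%, 2.48%, 1.91% and 1.65%. The 3 windows after them held 88, 80 and 96 peaks, and coverage rose to 5.40%, 4.76% and 4.41%. The last 3 windows held 54, 85 and 107 peaks. The last one was the richest window of the chromosome in both number and coverage (6.49%). Highest and lowest windows of chromosome 4 differed 2.61-fold in peak number, against 5.9-fold, 3.24-fold and 4.15-fold on chromosomes 1, 2 and 3. In coverage they differed 3.93-fold, against 12.2-fold, 4.82-fold and 4.81-fold. The 12.2-fold value rests on 1 window of chromosome 1, covered to 1.43%. Such ratios tend to grow with the number of windows, which was 14 on chromosome 4 and 36, 35 and 31 on chromosomes 1, 2 and 3.

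Peaks on chromosome 4 were narrow. Between a 25th percentile of 243 bp and a 75th of 606 bp, their median was 369 bp, whereas chromosomes 1, 2 and 3 had medians of 524, 536 and 548 bp. The shift grew with width. At the 5th percentile the width on chromosome 4 was 0.956 times that of chromosomes 1 to 3 pooled, at the median it was 0.690 times, at the 90th percentile 0.546 times and at the 99th percentile 0.377 times. The smallest peaks were thus close in size on every chromosome, and broad ones were rarer on chromosome 4. Peaks over 1 kb made up 9.92% of chromosome 4 (96 peaks) and 24.9%, 25.7% and 26.1% of chromosomes 1, 2 and 3. Above 2 kb there were 12 peaks on chromosome 4, or 1.24%, against 919 or 8.36% elsewhere. No peak of chromosome 4 was over 4 kb wide, while the other chromosomes held 251 such peaks, or 2.28%.

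The same held window by window. The median width in a window of chromosome 4 ran from 273 to 486 bp, with a median of 369 bp, and elsewhere from 328 to 934 bp, with a median of 532 bp (exact rank-sum test, adjusted p = 5.69e-11). Only 2 of the 102 other windows were below the median of chromosome 4. Taken alone, chromosomes 1, 2 and 3 had window medians of 532, 525 and 548 bp, and each comparison with chromosome 4 was past the threshold (exact rank-sum test, adjusted p = 1.90e-07, 1.65e-09 and 1.11e-07).

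**Figure D2:**
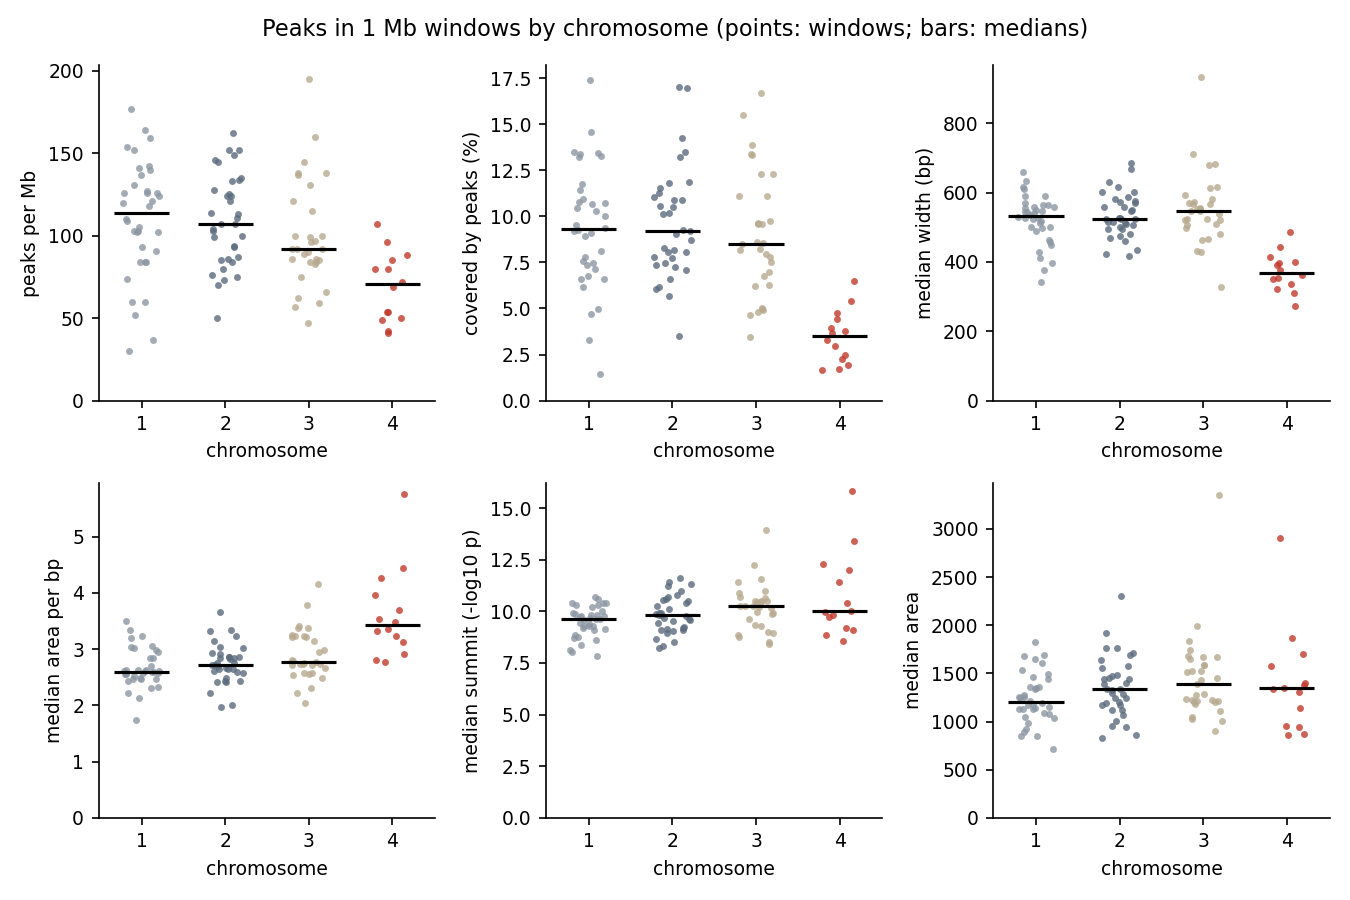
Values of full 1 Mb windows by chromosome (x axis) for peaks per Mb, percent of the window covered, median width in bp, median area per bp, median summit height (-log10 p) and median area. Each point is a window and each bar the median of a chromosome. Windows of chromosome 4 are low in coverage and width and high in area per bp, and overlap the others widely in summit height and area, except for 1 window with a summit height of 15.8, above all others.

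The widest peak of chromosome 4, chr4:8523773-8527404, was 3632 bp wide with an area of 24263, and 298 peaks on the 4 chromosomes were at least as wide, itself included. The next was chr4:13801925-13805299, of 3375 bp. It also had the largest area of the chromosome, 38029, and on all 4 chromosomes 168 peaks reached that area. The next in width, chr4:8340387-8343218 (2832 bp) and chr4:1761869-1764457 (2589 bp), had their summits 82.7% and 80.1% of the way from the centre to an edge. The fifth, chr4:13833184-13835635 (2452 bp), had its summit close to the centre, at 6.81% of that distance. Broad peaks of chromosome 4 therefore differed among themselves in where the signal was highest.

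Area gave no single direction. The median area was 1333 on chromosome 4 and 1222, 1323 and 1381 on chromosomes 1, 2 and 3. Over windows the medians were 1344 and 1279 (exact rank-sum test, adjusted p = 0.970), and the windows of chromosome 4, from 860 to 2901, lay within the range of the others, from 720 to 3349. The small difference changed sign with windows of another length or start and against chromosome 3 alone, without a call. With only peaks at or above the median area of the list, chromosome 4 was lower, at 3439 against 4101 (exact rank-sum test, adjusted p = 0.00484). With only peaks under 1000 bp wide, chosen after values were seen, it was higher, at 1093 against 802 (exact rank-sum test, adjusted p = 1.46e-05). That cut is unequal, since peaks over 1 kb were 9.92% of chromosome 4 and 25.5% of the others pooled. Wide peaks have larger areas, so the direction in this subset is partly fixed by the cut. Large areas were rarer on chromosome 4. At the 90th percentile the area was 7391 on chromosome 4 and 11498 on the others pooled, and at the 99th percentile it was 20811 and 46362. As a result, the area of chromosome 4 was spread over more of its peaks. The 115 largest peaks, or 11.9% of its peaks, held 50% of the area, whereas 7.47%, 7.29% and 7.32% of the peaks did so on chromosomes 1, 2 and 3.

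Signal per bp was higher on chromosome 4. The median area per bp was 3.55, against 2.64, 2.70 and 2.82 on chromosomes 1, 2 and 3. Its ratio to the others pooled was 1.38 at the 5th percentile, 1.31 at the median and 1.22 at the 99th percentile. In windows the median ran from 2.77 to 5.75 on chromosome 4, with a median of 3.42, and from 1.74 to 4.16 elsewhere, with a median of 2.71 (exact rank-sum test, adjusted p = 1.52e-06). All 14 windows of chromosome 4 were above the median of the others, and 98 of the 102 others were below the median of chromosome 4. Peaks with more than 10 kb free on both sides did not show the shift. Their median area per bp was 2.93 on chromosome 4 and 2.95 on the others pooled. Area per bp has the width in its denominator, so this measure and the width are not independent. The caller also kept no peak with an area under 200.02, which asks more signal per bp of a narrow peak than of a broad one.

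**Figure D3:**
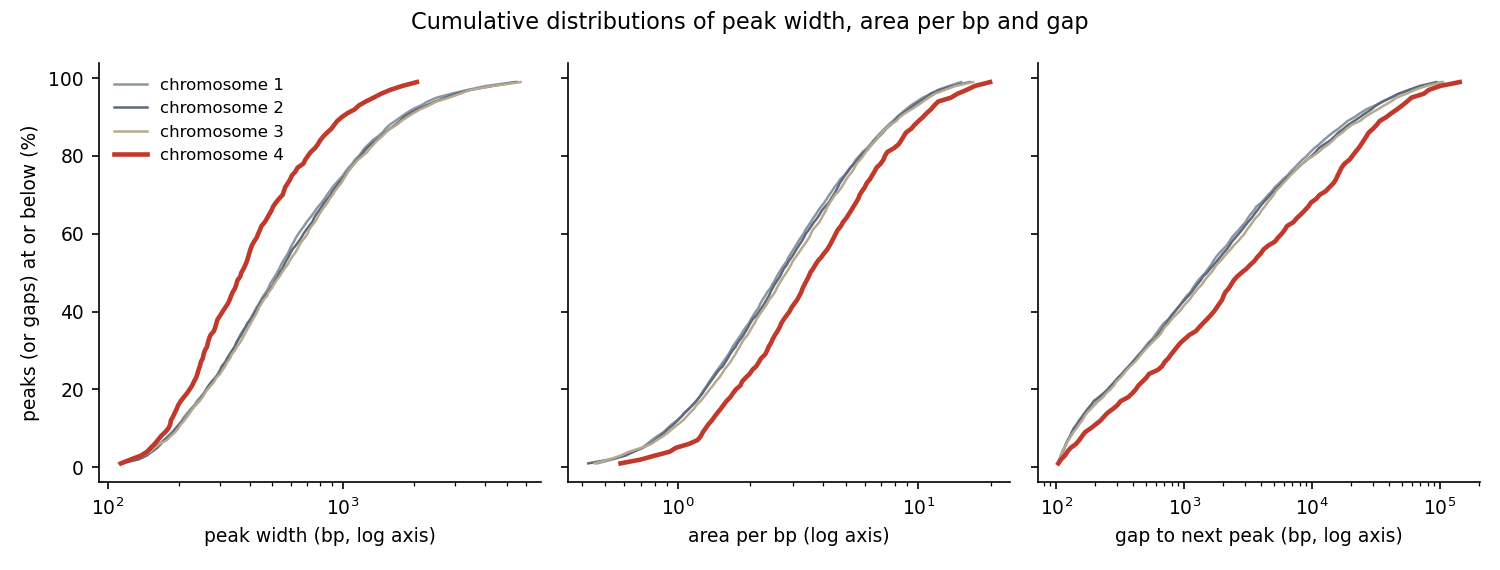
Share of peaks or gaps (y axis, %) at or below a given peak width in bp, area per bp and gap to the next peak in bp (x axes, logarithmic), from the 1st to the 99th percentile, with 1 line for each chromosome. The lines of chromosomes 1 to 3 lie close together without coinciding. That of chromosome 4 runs to smaller widths, higher area per bp and longer gaps.

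The contrast between width and signal was also seen when peaks of like width were set side by side. Between 250 and 500 bp, where 39.4% of the peaks of chromosome 4 lay, the median area per bp was 3.51 on chromosome 4 and 2.08 on the others pooled. Between 500 and 1000 bp it was 5.56 and 2.72, and between 1000 and 2000 bp it was 6.24 and 4.25. Under 250 bp it was 2.50 and 2.12, a smaller difference in the class closest to the limit of the list. Peaks of 2 kb and more, 13 on chromosome 4, had 6.68 and 6.18.

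For summit height the call depended on how windows were placed. The median summit height was 10.6 on chromosome 4 and 9.49, 9.72 and 10.0 on chromosomes 1, 2 and 3. Over 1 Mb windows from the chromosome start the medians were 10.0 and 9.84 (exact rank-sum test, adjusted p = 0.226). With windows that started 500 kb further in they were 10.5 and 9.75, with 500 kb windows 10.4 and 9.81, and with 2 Mb windows 10.6 and 9.74, each past the threshold (exact rank-sum test, adjusted p = 0.0453, 0.0439 and 0.0327). With only peaks at or above the median area of the list they were 18.66 and 16.99 (exact rank-sum test, adjusted p = 0.0192). An area floor asks more signal per bp of a narrow peak, and peaks of chromosome 4 were narrower. That subset is therefore no check on summit height. Against chromosome 3 alone the median of chromosome 4 was the lower one, 10.0 against 10.3 (exact rank-sum test, adjusted p = 0.875). The highest summits were on the other chromosomes, which reached 58.8, against 51.5 on chromosome 4. Among peaks under 1000 bp wide, an alternative chosen after values were seen, window medians were 9.79 on chromosome 4 and 8.01 elsewhere (exact rank-sum test, adjusted p = 1.25e-08). Peaks over 1 kb, which this cut removed, were 9.92% of chromosome 4 and 25.5% of the others pooled. Since wide peaks tend to have high summits, this subset is no check on summit height.

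At the same summit height, peaks of chromosome 4 were narrower at every level. For summits under 6 the median width was 244 bp on chromosome 4 and 332 bp on the others pooled, and from 6 to 10 it was 256 and 354 bp. From 10 to 20 it was 429 bp (interquartile range 301 to 631 bp) and 657 bp (417 to 1070 bp). From 20 to 30 it was 595 bp (444 to 966 bp) and 1202 bp (805 to 1885 bp). At 30 and above, where chromosome 4 had 61 peaks, it was 1021 bp (779 to 1449 bp) and 1959 bp (1241 to 3443 bp). The absolute difference was therefore largest among the peaks of highest significance.

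**Figure D4:**
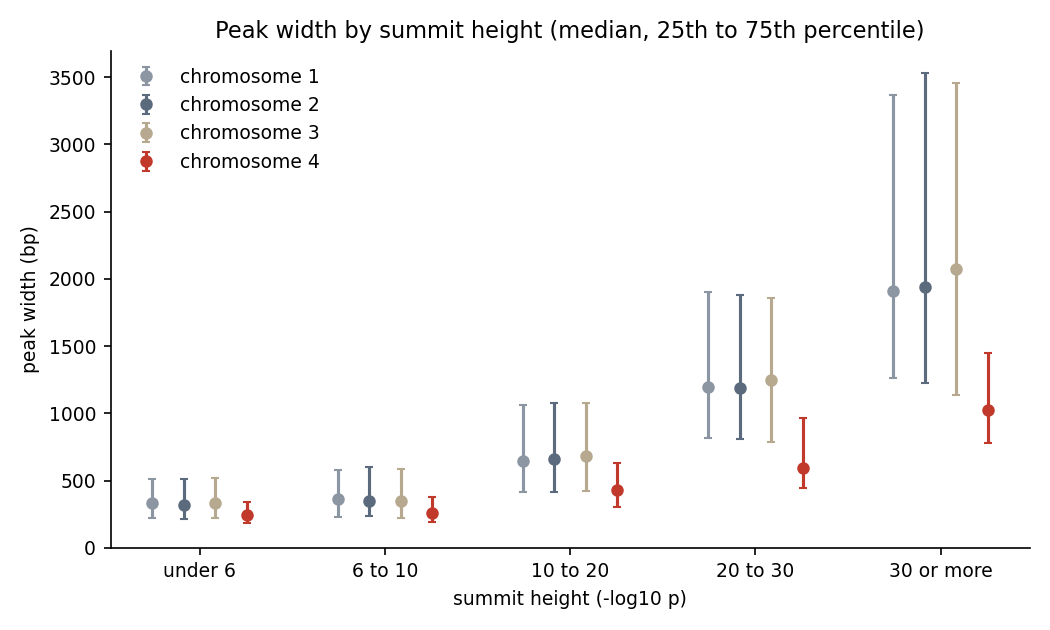
Peak width in bp (y axis) for 5 classes of summit height (x axis, -log10 p), by chromosome. Points are medians and bars run from the 25th to the 75th percentile of the peaks. In each class the median of chromosome 4 is the lowest, with 1021 bp against 1909, 1942 and 2070 bp at a summit height of 30 or more.

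To take this pattern to windows, peaks were put in 20 classes of like summit height, of equal size over the 4 chromosomes. Each peak was given the percentile of its width in its class. This measure was added after values were seen. The window medians of chromosome 4 ran from the 18.3rd to the 36.0th percentile, with a median of 26.1, and those of the other windows from 34.5 to 66.6, with a median of 52.5 (exact rank-sum test, adjusted p = 1.04e-15). The 2 ranges touched only at their ends, and none of the 102 other windows was below the median of chromosome 4. Because the measure was built on a pattern seen in these same peaks, its p-value is no separate support for that pattern. It is not to be ranked against the planned measures.

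Ranked over the 4 chromosomes, peaks of chromosome 4 were rare among the widest and frequent among those with most signal per bp. Of the 1197 widest peaks, the top 10%, 23 were on chromosome 4, or 1.92%, where its share of all peaks was 8.09%. Of the same number of peaks with the largest area, 53 or 4.43% were on chromosome 4. Of those with the highest summits, 87 or 7.27% were, and of those with the highest area per bp, 156 or 13.0%. Put the other way, 16.1% of the peaks of chromosome 4 were in the top 10% by area per bp, against 9.14%, 9.49% and 9.86% of the peaks of chromosomes 1, 2 and 3.

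The peak with the highest area per bp on chromosome 4 was chr4:5417862-5418391, with 30.3 over 530 bp and a summit height of 45.8. It was second on all 4 chromosomes. The peak chr4:13349120-13350168 was the next among them, with 30.1 over 1049 bp. It also had the second largest area of chromosome 4, 31583, and the second highest summit, 51.0. Both stood alone, with no other peak within 1 kb, and both had the summit almost at the centre, at 1.32% and 3.62% of the distance to an edge. The 3 next in area per bp were chr4:2970594-2971454 (23.1), chr4:6846050-6846681 (23.0) and chr4:6844440-6845066 (22.2), each part of a run of 3 peaks.

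The highest summit of chromosome 4, 51.5, belonged to chr4:2967108-2968598, a peak of 1491 bp with an area of 30374. It was in the same run of 3 peaks as chr4:2970594-2971454. The next largest areas were those of chr4:502155-504238 (28993, over 2084 bp) and chr4:10040539-10041808 (26111, over 1270 bp). The third highest summit, 47.3, was at chr4:10035095-10036115. The first peak of the chromosome, chr4:20144-21580, was 1437 bp wide with a summit height of 20.4, and the last, chr4:14015004-14015354, was 351 bp wide with one of 27.4. At the other extreme, the smallest area of chromosome 4 was 200.2, at chr4:10394914-10395023, a peak of 110 bp.

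Summits on chromosome 4 lay somewhat closer to the centre of their peaks. The median distance of the summit from the centre was 28.7% of the way to an edge, against 33.04%, 31.7% and 32.0% on chromosomes 1, 2 and 3, and 80.0% of the summits of chromosome 4 were in the inner part, up to 50% of the way, against 72.5% on the others pooled. Over windows the medians were 29.1% and 32.2% (exact rank-sum test, adjusted p = 0.00508), with wide overlap from 22.8% to 37.5% on chromosome 4 and from 23.5% to 40.2% elsewhere. When only peaks under 1000 bp wide were kept, the medians were 28.3% and 29.8% and the adjusted p was 0.145 by the same exact rank-sum test.

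Peaks of chromosome 4 were further apart. The median gap between neighbouring peaks was 2806 bp, against 1463, 1510 and 1627 bp on chromosomes 1, 2 and 3, and at the 75th percentile it was 15842 bp, 2.40 times the 6599 bp of the others pooled. Window medians ran from 1011 to 9028 bp on chromosome 4, with a median of 3407 bp, and from 687 to 5525 bp elsewhere, with a median of 1600 bp (exact rank-sum test, adjusted p = 0.000179). The smallest gap was 101 bp on all 4 chromosomes. With only peaks at or above the median area the difference between window medians was 1914 bp (exact rank-sum test, adjusted p = 0.305), and with only peaks under 1000 bp it was 512 bp (exact rank-sum test, adjusted p = 0.476), so the call did not hold in either subset. The cut at 1000 bp left out a larger share of the peaks of chromosomes 1 to 3. Their median spacing became 3941 bp, against 4453 bp on chromosome 4, so this lost call cannot be read as like spacing.

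Fewer peaks of chromosome 4 lay in runs, taken as at least 3 peaks with gaps of at most 1000 bp. Runs held 251 of its peaks, or 25.9%, against 40.7%, 40.6% and 38.6% on chromosomes 1, 2 and 3, and there were 4.28 runs per Mb against 10.1 on the others pooled. Single peaks made up 47.8% of chromosome 4 and 35.8% of the others. Peaks with more than 10 kb free on both sides made up 13.4% (130 peaks) and 6.41%. These shares rest on fixed distances and so depend on peak density, which was 69.1 per Mb on chromosome 4 and 106 on the others pooled. They are therefore not separate from the low peak number. The standard deviation of the gaps was 1.96 times their mean on chromosome 4 and 2.51, 2.17 and 2.29 times on chromosomes 1, 2 and 3. In windows, 9.26% to 51.3% of the peaks of chromosome 4 were in runs, with a median of 22.5%, and 5.77% to 60.5% elsewhere, with a median of 39.4% (exact rank-sum test, adjusted p = 0.000132). This call too was absent with only peaks at or above the median area, where the medians were 16.2% and 19.5% (exact rank-sum test, adjusted p = 0.547), and with only peaks under 1000 bp, where they were 17.7% and 18.3% (exact rank-sum test, adjusted p = 0.875). Since the cut at 1000 bp thins chromosomes 1 to 3 more, their median fell from 39.4% to 18.3% and that of chromosome 4 from 22.5% to 17.7%. The lost call in that subset cannot be read as a like share in runs.

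The runs of chromosome 4 were few, 60 in all, against 376, 382 and 285 on chromosomes 1, 2 and 3. Of its 60 runs, 26 had 3 peaks, 17 had 4, 6 had 5, 5 had 6, 4 had 7, and 1 each had 8 and 9. Runs of 3 peaks were 180, 191 and 127 of those on chromosomes 1, 2 and 3, so its runs were not clearly shorter. The longest runs of chromosomes 1, 2 and 3 had 20, 12 and 14 peaks, but the longest run tends to grow with the number of runs. The run of 9 peaks was chr4:9858691-9867805, with peaks over 63.0% of its 9115 bp and summits from 4.51 to 25.4. The run of 8, chr4:9387732-9397441, lay in the same 1 Mb window, which had the highest share of peaks in runs on the chromosome. Among the 4 runs of 7 peaks, chr4:5207060-5215996 had the largest summed area, 70246, with summits up to 45.1. The run chr4:8521648-8532897 had the highest coverage, 84.2% of 11250 bp, and included the widest peak of the chromosome. The other runs of 7 were chr4:6968685-6976402 and chr4:12739552-12746996, with summits up to 42.7 and 42.0. Each of these runs joined strong and weak peaks, since their lowest summits were between 4.51 and 7.44.

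On chromosome 4 the peaks in runs had higher summits than single ones. Their median summit height was 14.4, that of pairs 10.3 and that of single peaks 9.56. The isolated peaks, a subset of the single ones, had 8.62. On the others pooled, the same medians were 10.1, 9.69, 9.47 and 9.16, a much smaller step. The width rose with the neighbours on each chromosome, from 333 bp for single peaks to 496 bp in runs on chromosome 4 and from 429 to 690 bp on the others pooled. Area per bp was 3.27 for single peaks and 4.74 in runs on chromosome 4, whereas elsewhere it was 2.80 and 2.63. For isolated peaks it was 2.93 on chromosome 4 and 2.95 elsewhere. The difference in median summit height between peaks in runs and single peaks was then taken in each window, a measure added after values were seen. It ran from -2.85 to 10.6 on chromosome 4, with a median of 4.32, and from -5.36 to 9.58 elsewhere, with a median of 0.183 (exact rank-sum test, adjusted p = 4.70e-05), and 12 of the 14 windows of chromosome 4 were above the median of the others. Each window value needed at least 5 peaks in runs and 5 single ones, and peaks of the same run are not independent. Few peaks stood behind some values, since chromosome 4 had 60 runs in all. In its window of lowest share, 9.26% of 54 peaks were in runs. The call was lost under 3 alternatives. A run gap of at most 500 bp gave 1.54 on chromosome 4 and 0.0616 elsewhere (exact rank-sum test, adjusted p = 0.226). Peaks at or above the median area gave 6.07 and 0.703, with 6 windows left on chromosome 4 (exact rank-sum test, adjusted p = 0.158), and peaks under 1000 bp gave 1.62 and -0.161 (exact rank-sum test, adjusted p = 0.0561).

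**Figure D5:**
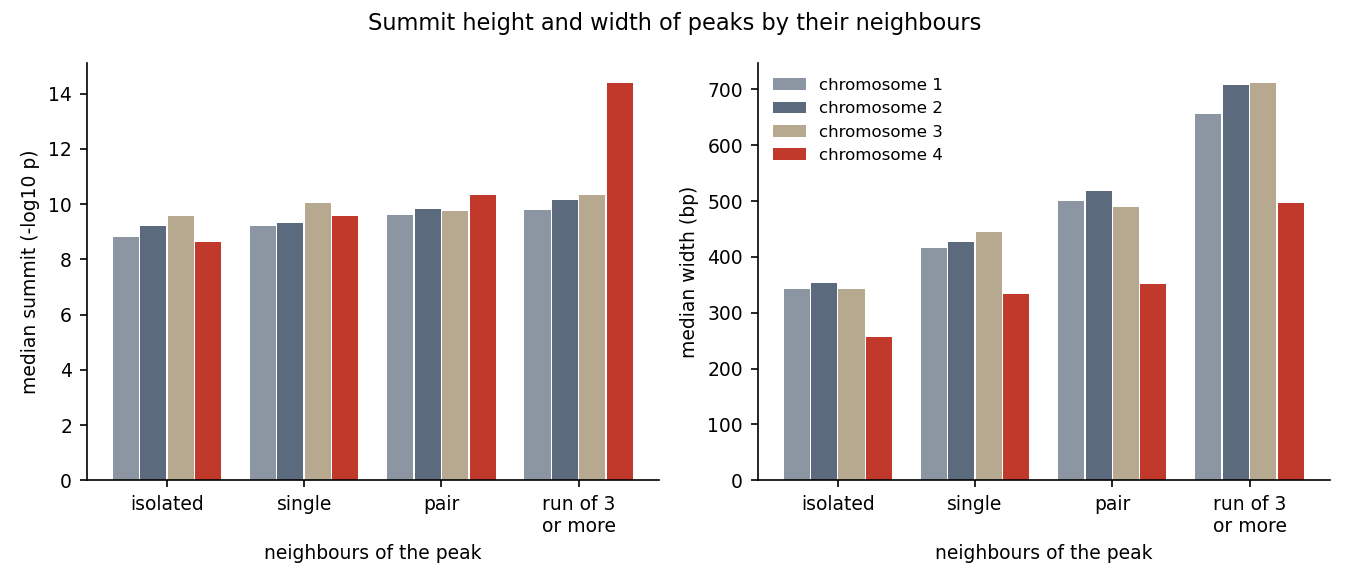
Median summit height (-log10 p, left) and median width in bp (right) of peaks that are isolated by over 10 kb on both sides, single, in a pair or in a run of 3 or more, by chromosome. Isolated peaks are a subset of the single ones. Summit height rises to 14.4 in the runs of chromosome 4 and to 9.80, 10.1 and 10.3 in those of chromosomes 1, 2 and 3.

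Peak-free stretches over 50 kb were 69 on chromosome 4 and took up 46.2% of its length, against 37.9%, 33.6% and 40.0% of chromosomes 1, 2 and 3. Over 100 kb there were 20, or 14.3 per 10 Mb, against 11.7, 7.95 and 11.2 per 10 Mb. Counts over a fixed length depend on peak density too. The longest ran for 231371 bp, chr4:8636007-8867377. The next were chr4:4888499-5112370 (223872 bp), chr4:9591920-9802728 (210809 bp), chr4:6426626-6619347 (192722 bp) and chr4:5933389-6125665 (192277 bp), so that 3 of the 5 longest were centred between 5 and 7 Mb. The longest stretch per window had a median of 144112 bp on chromosome 4 and 120406 bp elsewhere (exact rank-sum test, adjusted p = 0.204), and the longest of all, 380124 bp, was on chromosome 1. This too depended on the placement of windows, since 1 Mb windows that started 500 kb further in gave 156069 and 117042 bp (exact rank-sum test, adjusted p = 0.0352) and 500 kb windows gave 110142 and 91269 bp (exact rank-sum test, adjusted p = 0.0218). With only peaks at or above the median area the values were 210633 and 162748 bp (exact rank-sum test, adjusted p = 0.0159), and against chromosome 2 alone they were 144112 and 99721 bp (exact rank-sum test, adjusted p = 0.0425).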

How the data were processed

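The authors made ATAC-seq libraries, 3 of normally cultured and 3 of trehalose-treated Pv11 cells, and deposited 1 list of 12035 peaks. Bowtie2 2.3.4.3, SAMtools 1.11-5, Picard and Genrich 0.6 are named in the submitters' processing notes. Not given in the sources used here were the build, filters, caller options and libraries used. Depth is unknown. The deposited score equalled 1000 times area per bp, rounded and held at 1000, in all 12035 peaks and was not used. The signal column deposited by the authors is the area, with no stated normalization. The -log10 p-value and -log10 q-value of each peak were deposited by the authors too; the former is called summit height, and area per bp was below it in all 12035 peaks.

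Peaks were assigned to windows by their centre, coverage was clipped to the window, and medians needed at least 5 peaks. The length of a chromosome was the end of its last peak. The exact rank-sum distribution, with ties, was counted in Python 3.11.15 (numpy 2.4.6, pandas 2.3.3), checked against scipy 1.17.1 and tested on simulated data, and figures were drawn with matplotlib 3.10.9. Of the 12 measures, 10 were planned and 2 were added after values were seen. Alternatives were windows of 500 kb and 2 Mb, windows starting 500 kb in, larger areas, a q of at most 0.001, chromosome ends left out, each chromosome alone, run gaps of 500 and 5000 bp and, added later, peaks under 1000 bp. The members, measures and lists were chosen with earlier results of these data known. Peaks named in the text are the first and last of chromosome 4, the 5 widest, the 5 of largest area, area per bp and summit height, and the smallest area, 17 peaks in all, with the runs of most peaks, the 5 longest peak-free stretches and the windows with extreme values. The planned gene lists were not used, because the build of the list is not given.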

Additional observations from a re-analysis of the deposited data

How the results depend on the processing

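Over 124 recomputed values, 100 kept direction and side of the 0.05 threshold (adjusted exact rank-sum test), 10 passed it only in the alternative, 8 lost it and 6 reversed. Peaks per Mb, coverage, width, area per bp and width at like summit height kept their call under all alternatives run. For area per bp and summit height, keeping larger areas only raises the area floor and is no check on them. The cut at 1000 bp takes out more peaks of chromosomes 1 to 3 (25.5% were over 1 kb) than of chromosome 4 (9.92%). It is therefore no check on area, area per bp, summit height, spacing or share in runs. All values below are chromosome 4 minus the others, and the cause of the changes was not tested. Windows of 500 kb, windows of 2 Mb and windows starting 500 kb in gave -13.6, -12.9 and -51.2 for median area and, past the threshold, 0.54, 0.85 and 0.70 for summit height; for the longest peak-free stretch the first and the last gave 18873 and 39027 bp, past the threshold. Larger areas only gave -662 for median area (adjusted p = 0.00484, exact rank-sum test), 1.68 for summit height and 47885 bp for the longest stretch, past the threshold, and no call for spacing (1914 bp), share in runs (-3.31 points) or summit height in runs over singles (5.36, with 6 windows on chromosome 4). Against chromosome 2 alone the longest stretch was 44392 bp, past the threshold, and against chromosome 3 alone median area was -46.5 and summit height -0.26. Peaks under 1000 bp, chosen after seeing the data, gave 290.4 for median area and 1.78 for summit height, past the threshold, and no call for summit place (-1.53 points), spacing (512 bp), share in runs (-0.58 points) or summit height in runs over singles (1.78, adjusted p = 0.0561 by the exact rank-sum test). A run gap of 500 bp left the last of these at 1.48, without a call. Leaving out libraries was not run, because the list names none. No paired analysis was possible because neither replicates nor conditions are marked in the peak list.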

Other observations

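The window of chromosome 4 from 5 to 6 Mb combined few peaks with strong ones; it was singled out after its values were seen. It held 50 peaks, among the fewest of the chromosome, and a peak-free stretch of 223872 bp was centred at its start. Its peaks had the highest window medians of the chromosome in width (486 bp), area (2901), area per bp (5.75) and summit height (15.8). For area per bp and summit height these values were also above the highest window of the other chromosomes, which had 4.16 and 13.96. Set against peaks of like summit height, however, its peaks were the narrowest of the chromosome, at a median percentile of 18.3. The peak chr4:5417862-5418391, with the highest area per bp of the chromosome, and the run of 7 peaks chr4:5207060-5215996 lie in this window.

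The window from 13 to 14 Mb was the opposite case in number, with 107 peaks, and held the second widest peak of the chromosome, chr4:13801925-13805299, and the fifth, chr4:13833184-13835635. Its peaks were the least narrow of chromosome 4 for their summit height, at a median percentile of 36.0. Its longest peak-free stretch, 75499 bp, was the shortest such value on the chromosome.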
